A study of Mus musculus with 6 samples.

Results

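The genes described here handle fatty acids at the surface and in the cytosol of cells, and they were chosen by name. They are the fatty acid translocase Cd36, the fatty acid binding proteins Fabp1, Fabp2, Fabp4 and Fabp5, the fatty acid transport proteins Slc27a1, Slc27a2 and Slc27a4, and the extracellular lipases Lpl and Lipc. All 10 were found by symbol in GENCODE M21 among the 54532 mouse genes of the count table, and all 10 were among the 12795 genes with enough counts to be tested.

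Fatty acids reach the liver as free acids bound to albumin and inside lipoprotein particles. Lipoprotein lipase, bound to capillary walls in fat and muscle, and hepatic lipase, bound in the liver sinusoids, release fatty acids from circulating triglyceride and phospholipid. CD36 and the SLC27 (FATP) proteins promote uptake, and the SLC27 proteins also couple fatty acids to coenzyme A. The small FABP proteins then carry fatty acids through the cytosol. FABP1 is the main form of hepatocytes, FABP2 of the intestinal lining, FABP4 of adipocytes and macrophages, and FABP5 of skin, macrophages and other tissues.

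Livers of wild-type mice were compared. The HFD group (replicates 1 to 3) received a high-fat diet for 4 weeks and then for 4 more weeks, and the HFD+allantoin group (replicates 4 to 6) received the same diet with allantoin, a product of uric acid breakdown, in the drinking water during the second 4 weeks. The labels name concentrations of 0.06 and 0.3 mg/mL without saying which one each library had, and the study's text describes the sequenced animals as the higher-dose group. The study's methods give male C57BL/6J mice of 8 weeks at entry, while the wording of the labels can be read as feeding from 4 weeks of age, so the age is not settled. Both groups ate the high-fat diet, no chow-fed liver was analysed here, and each group has 3 libraries. The labels do not say that the libraries came from separate animals, so p-values measure only the spread between these libraries. The comparison asks how the genes differed between high-fat-fed livers with and without allantoin.

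The libraries held 11326372 to 14601457 counts. Transcripts coded by mitochondrial DNA took 17.1% to 35.5% of the counts in HFD and 6.68% to 11.1% in HFD+allantoin, and the composition factors (TMM) that correct library size were 0.756 to 0.951 and 1.12 to 1.19. In a refit without the genes of the mitochondrial chromosome, Slc27a4 (log2 difference 1.24), Fabp1 (-1.07), Fabp5 (-1.70) and Slc27a2 (-0.53) passed at an adjusted p under 0.05 (edgeR). These are the same 4 members as in the main fit below. The refit again scales by TMM, so it cannot show what part the group difference in mitochondrial counts has in the results below. That part was not tested. Levels are given as CPM, read counts scaled to library size after the TMM correction. Without it, the median log2 difference of all tested genes rises by 0.41, and no member called at an adjusted p under 0.05 changes its direction. Fabp1 (-0.64) and Slc27a2 (-0.12) then lose their calls, Slc27a4 and Fabp5 keep theirs, and Cd36 gains a call. In bulk liver, fewer cells of a type and less RNA per cell cannot be told apart.

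HFD replicate 2 held transcripts of fat tissue that were at 0 to 2 counts in the other 5 libraries. Adiponectin (Adipoq) had 520 counts in HFD replicate 2, and 0, 0, 1, 0 and 0 in HFD replicates 1 and 3 and HFD+allantoin replicates 4, 5 and 6. The adipocyte lipid droplet protein gene Plin1 had 498 counts in HFD replicate 2 and 0, 0, 1, 0 and 0 in the others. Resistin (Retn) had 200 counts there and 0 to 2 elsewhere, and leptin (Lep) had 115 there and 0 in each other library. The other 3 of the 7 adipocyte markers were in every library: Plin4, Cfd and Car3. Plin4 was highest in HFD replicate 1 (919 counts, beside 735 in HFD replicate 2). It was called lower in HFD+allantoin (log2 difference -1.71, adjusted p = 0.0396, edgeR), beside 13.0% of all tested genes. Without HFD replicate 2, Plin4 was not called (-1.64, adjusted p = 0.0765, edgeR). Cfd and Car3 were not called. The summed level of the 7 markers, most of it Car3, was 3259 to 4226 CPM in HFD and 2520 to 3840 CPM in HFD+allantoin. In 50 of the 12795 tested genes, or 0.391%, HFD replicate 2 was at least 5 times the higher of the other HFD libraries. Fabp4 and Lpl were among these genes, at 23.0 and 5.81 times, and no other member was. Adipoq, Plin1, Retn and Lep had too few counts outside HFD replicate 2 to be tested, so this share leaves them out. Each member is therefore given with and without HFD replicate 2.

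**Figure D1:**
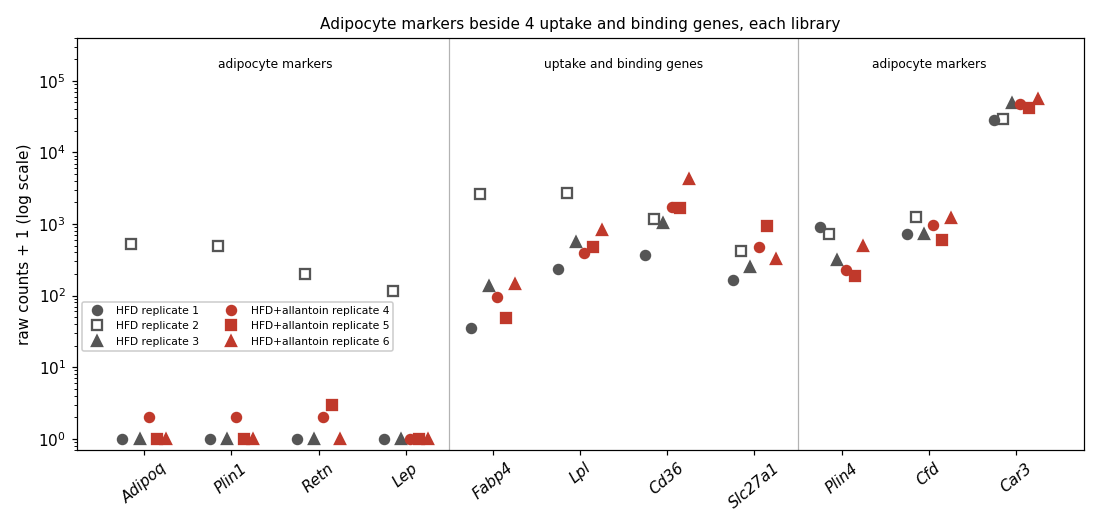
Raw counts plus 1 of the 7 adipocyte markers and of Fabp4, Lpl, Cd36 and Slc27a1 in each library, on a logarithmic axis. Adipoq, Plin1, Retn and Lep stand at 115 to 520 counts in HFD replicate 2 and at 0 to 2 in the other libraries, and Fabp4 and Lpl are highest in the same library.

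With all 6 libraries, 4 members passed the edgeR quasi-likelihood test at a Benjamini-Hochberg adjusted p under 0.05. Slc27a4 was higher in HFD+allantoin, Fabp1, Fabp5 and Slc27a2 were lower, and the other 6 did not pass. Over all tested genes the test called 24.3%, with 11.3% higher and 13.0% lower. The median log2 difference of the members was -0.24, beside -0.03 for all tested genes. Without HFD replicate 2, 3 members passed (Slc27a4 higher, Fabp1 and Fabp5 lower), beside 22.3% of all tested genes (9.83% higher and 12.5% lower), and the median was -0.02 both for the members and for all tested genes. The groups did not overlap in 4 members with all 6 libraries, beside 44.3% of all tested genes, and in 7 members without HFD replicate 2, beside 54.0%.

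**Figure D2:**
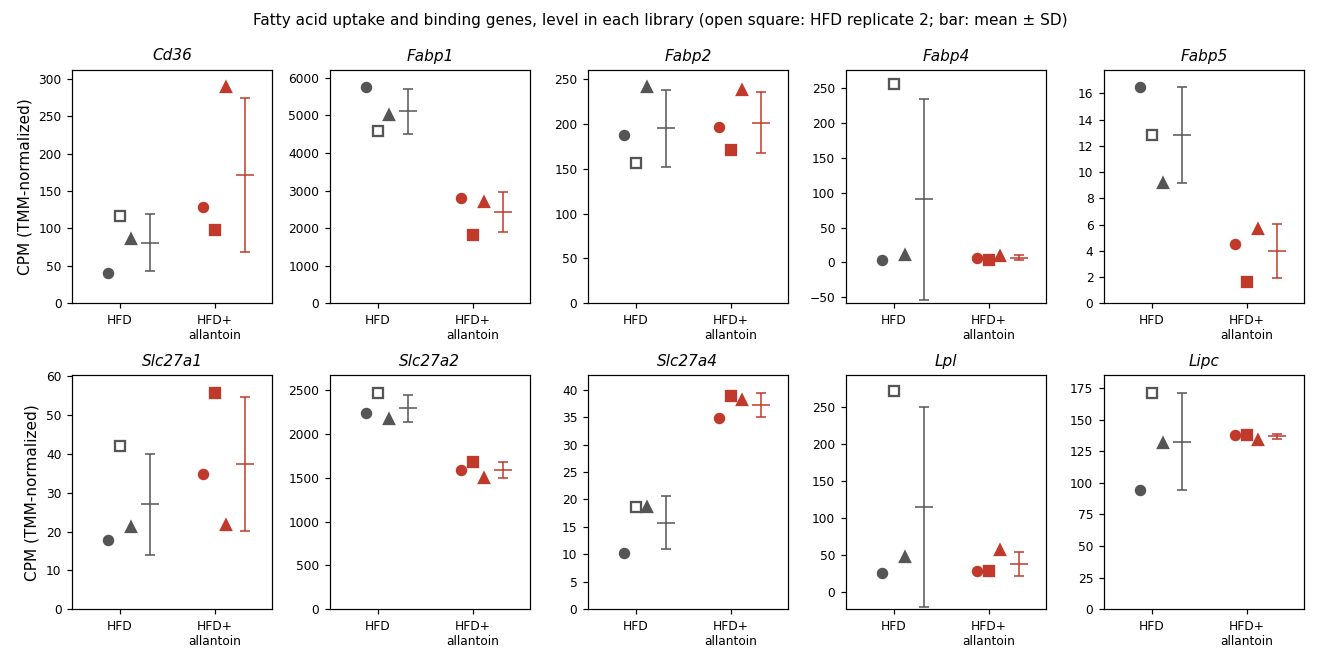
CPM of each of the 10 genes in each library (symbols, with HFD replicate 2 as an open square), on a linear axis for each gene, with the mean and SD of each group as a bar. Slc27a4 lies higher in all 3 HFD+allantoin libraries (34.8 to 38.9 CPM) than in the HFD libraries (10.2 to 18.6 CPM), and Fabp4 and Lpl are far highest in HFD replicate 2.

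**Figure D3:**
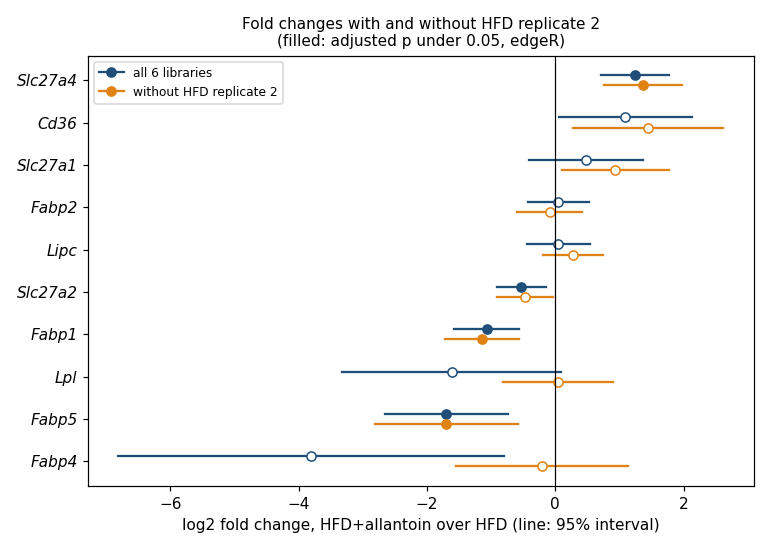
Log2 difference of each gene, HFD+allantoin minus HFD, with its 95% confidence interval, with all 6 libraries and without HFD replicate 2. Filled symbols mark an adjusted p under 0.05, which Slc27a4, Fabp1 and Fabp5 have in both fits, and Fabp4 moves from -3.80 to -0.21.

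Of the 3 transport proteins, 1 was called higher, 1 was called lower and 1 was not called. Slc27a4 (FATP4, ENSMUSG00000059316, GRCm38 chromosome 2, 29802634 to 29817522, + strand), which activates long-chain fatty acids and is best known from the intestine and skin, had 10.2, 18.6 and 18.6 CPM in HFD and 34.8, 38.9 and 38.1 CPM in HFD+allantoin. Every HFD+allantoin library was above every HFD library. The means were 15.8 ± 4.86 and 37.3 ± 2.18 CPM (SD, n = 3 each). Slc27a4 was 2.36-fold higher, a log2 difference of 1.24 (SE 0.24, 95% interval 0.71 to 1.77, adjusted p = 0.00826, edgeR). With HFD replicate 2 left out the log2 difference was 1.37 (adjusted p = 0.0122, edgeR). It was called in all 16 alternative settings run for it, at 1.0 to 1.62.

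The bases just before the annotated start of Slc27a4 are shown because it is the one member called higher. They are the upstream 250 bases of a RefSeq promoter window (GRCm38.p6, chr2:29802384-29802633, + strand), with the GC box letters GGGCGG in capitals.
Slc27a4: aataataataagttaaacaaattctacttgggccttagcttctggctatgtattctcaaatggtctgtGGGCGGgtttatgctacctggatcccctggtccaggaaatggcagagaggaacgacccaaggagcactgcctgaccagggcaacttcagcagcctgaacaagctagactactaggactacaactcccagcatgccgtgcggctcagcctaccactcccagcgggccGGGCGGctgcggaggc

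Slc27a2 (FATP2, ENSMUSG00000027359, chromosome 2, 126552407 to 126588243, + strand) is the abundant transport protein of liver and an acyl-CoA synthetase of very long chain fatty acids. It had 2238, 2472 and 2176 CPM in HFD and 1591, 1675 and 1497 CPM in HFD+allantoin. The groups did not overlap, and the spread within each was small. Its means were 2295 ± 156 and 1588 ± 89.2 CPM (SD, n = 3 each), 1.45-fold lower, a log2 difference of -0.53 (SE 0.17, 95% interval -0.91 to -0.15, adjusted p = 0.0481, edgeR). The call was lost without HFD replicate 2, where the log2 difference was -0.47 (adjusted p = 0.111, edgeR). Leaving out HFD replicate 3 or HFD+allantoin replicate 4, 5 or 6 also ended it, with log2 differences of -0.57, -0.53, -0.57 and -0.49, and without the composition correction the difference was -0.12. The antisense lincRNA Gm26697 shares 419 bases with Slc27a2 exons and had 0 to 10 counts in each library.

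Slc27a1 (FATP1, ENSMUSG00000031808, chromosome 8, 71568882 to 71587302, + strand), the form typical of muscle and fat, had 17.9, 42.0 and 21.2 CPM in HFD and 34.8, 55.8 and 21.6 CPM in HFD+allantoin. HFD replicate 2 was the highest HFD library, and the groups overlapped. The log2 difference of 0.47 (95% interval -0.42 to 1.36, adjusted p = 0.409, edgeR) did not pass the test. When HFD replicate 2 was left out, the groups did not overlap and the log2 difference was 0.94 (95% interval 0.10 to 1.78, adjusted p = 0.101, edgeR).

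Cd36 (ENSMUSG00000002944, chromosome 5, 17781690 to 17888801, - strand), the scavenger receptor that takes up long-chain fatty acids, had 40.4, 116 and 85.5 CPM in HFD and 128, 97.5 and 289 CPM in HFD+allantoin. HFD+allantoin replicate 6 was the highest, and replicate 5 lay below HFD replicate 2. The means were 80.8 ± 38.2 and 172 ± 103 CPM (SD, n = 3 each). The log2 difference was 1.09 (SE 0.46, 95% interval 0.05 to 2.12, adjusted p = 0.114, edgeR), which did not pass the test. Leaving out HFD replicate 2 gave 1.45 (adjusted p = 0.0753, edgeR) with groups that did not overlap, and without HFD+allantoin replicate 6 it was 0.48. DESeq2 gave an adjusted p of 0.0359 with all 6 libraries.

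Among the binding proteins the 2 forms called were both lower. Fabp1 (ENSMUSG00000054422, chromosome 6, 71199827 to 71205023, + strand), the fatty acid carrier of the hepatocyte cytosol, had 5759, 4576 and 5010 CPM in HFD and 2793, 1830 and 2698 CPM in HFD+allantoin. All 3 HFD+allantoin libraries were below all HFD libraries. The means were 5115 ± 599 and 2440 ± 530 CPM (SD, n = 3 each), 2.10-fold lower, a log2 difference of -1.07 (SE 0.22, 95% interval -1.57 to -0.56, adjusted p = 0.0112, edgeR). Without HFD replicate 2 the log2 difference was -1.14 (adjusted p = 0.0181, edgeR). Fabp1 took 0.434%, 0.410% and 0.475% of the counts in HFD and 0.333%, 0.212% and 0.301% in HFD+allantoin, which placed it 24th to 27th and 36th to 53rd among all genes. It lost its call without the composition correction (-0.64), with the trend on transcript length and GC content removed (-0.67, adjusted p = 0.0527) and without HFD+allantoin replicate 5 (-0.89, adjusted p = 0.0563, edgeR).

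The bases just before the annotated start of Fabp1 are shown because it is the most abundant member and among those called lower. They come from its RefSeq promoter window (GRCm38.p6, chr6:71199629-71199826, + strand) and stop before the GENCODE start at 71199827. That start lies upstream of the RefSeq start of the window. A match to the DR1 letters is in capitals, where DR1 is the direct repeat that PPAR-RXR pairs are known to bind.
Fabp1: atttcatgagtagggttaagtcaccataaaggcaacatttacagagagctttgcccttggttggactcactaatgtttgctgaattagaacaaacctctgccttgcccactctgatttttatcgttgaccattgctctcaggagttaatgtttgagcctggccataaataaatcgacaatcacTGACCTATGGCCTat

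Promoter windows, from 250 bases before to 50 after each RefSeq start, were in hand for 7 of the 10 members, as 10 windows. The DR1 letters, 2 copies of AGGNCA with 1 base of any kind between them, searched on both strands, were in 125 of all 32851 windows of that length (0.381%), and among the members in Fabp1 alone, 67 bases before its RefSeq start. The shorter letters AGGTCA, which can lie inside a DR1, were in 16.3% of all windows and in those of Slc27a2, Cd36, Fabp1 and Lipc. The GC box letters were in 35.7% of all windows and in those of Slc27a4, Slc27a2, Cd36, Slc27a1 and Lipc. These are matches of letters, and binding was not measured. Fabp4, Fabp5 and Lpl had no window in the table.

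Fabp2 (ENSMUSG00000023057, chromosome 3, 122895072 to 122899506, + strand), the intestinal form, had 188, 156 and 241 CPM in HFD and 196, 171 and 238 CPM in HFD+allantoin. The libraries of both groups were interleaved. The log2 difference was 0.05 (95% interval -0.43 to 0.52, adjusted p = 0.892, edgeR), and -0.09 without HFD replicate 2. Markers of small intestine were at or near 0, with summed levels of 0 to 0.334 CPM and Lct, Cdx1 and Cdx2 at 0 in every library.

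Fabp5 (ENSMUSG00000027533, chromosome 3, 10012548 to 10016607, + strand), the epidermal form, had 16.5, 12.8 and 9.20 CPM in HFD and 4.55, 1.66 and 5.67 CPM in HFD+allantoin, from 151, 130, 110, 62, 28 and 84 counts. The groups did not overlap, and HFD+allantoin replicate 5 was the lowest. The means were 12.8 ± 3.64 and 3.96 ± 2.07 CPM (SD, n = 3 each), 3.25-fold lower, a log2 difference of -1.70 (SE 0.42, 95% interval -2.66 to -0.74, adjusted p = 0.0212, edgeR). Leaving out HFD replicate 2 gave -1.70 (adjusted p = 0.0411, edgeR), and the call was lost without HFD replicate 1 (adjusted p = 0.0620, edgeR), HFD+allantoin replicate 4 (0.0641) or replicate 5 (0.0505), at log2 differences of -1.48, -1.80 and -1.32. The processed pseudogenes Gm14328 and Gm6166 match Fabp5 transcripts at 97.3% and 98.3% over 408 and 409 bases and had 0 and 0 to 9 counts in each library, so a share of Fabp5 reads could be assigned to either.

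Fabp4 (aP2, ENSMUSG00000062515, chromosome 3, 10204088 to 10208576, - strand), the adipocyte form, had 3.71, 256 and 11.1 CPM in HFD and 6.82, 2.78 and 9.85 CPM in HFD+allantoin. HFD replicate 2 stood alone, with 2593 of its counts against 34 to 146 in the other 5 libraries. The log2 difference was -3.80 (SE 1.33, 95% interval -6.81 to -0.80, adjusted p = 0.0654, edgeR) and became -0.21 (95% interval -1.55 to 1.13, adjusted p = 0.823, edgeR) without HFD replicate 2. With that library kept and HFD replicate 1 or 3 left out, it passed the test at -4.36 (adjusted p = 0.0321) and -4.32 (adjusted p = 0.0233, edgeR).

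The lipase genes did not pass the test. Lpl (ENSMUSG00000015568, chromosome 8, 68880491 to 68907448, + strand), lipoprotein lipase, had 25.9, 271 and 46.6 CPM in HFD and 28.3, 27.7 and 55.9 CPM in HFD+allantoin. Apart from HFD replicate 2, the ranges of both groups overlapped. The log2 difference was -1.62 (95% interval -3.32 to 0.08, adjusted p = 0.146, edgeR) with all libraries, and 0.04 (95% interval -0.81 to 0.89, adjusted p = 0.949, edgeR) without HFD replicate 2.

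Lipc (ENSMUSG00000032207, chromosome 9, 70798128 to 70952226, - strand), hepatic lipase, had 94.8, 172 and 132 CPM in HFD and 138, 138 and 134 CPM in HFD+allantoin. The HFD+allantoin libraries lay close together inside the HFD range. The log2 difference was 0.04 (95% interval -0.44 to 0.53, adjusted p = 0.902, edgeR). It was 0.27 without HFD replicate 2 (adjusted p = 0.356, edgeR) and -0.15 without HFD replicate 1.

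Levels of different genes were compared per kilobase of the longest protein-coding transcript, a length chosen after the values were seen because retained-intron transcripts fill the introns of Fabp4 and Fabp5. On this scale, and in the order of the median over the 6 libraries, Fabp1 was highest, at 9250 ± 1082 CPM per kb in HFD and 4413 ± 959 in HFD+allantoin (SD, n = 3 each), followed by Slc27a2 at 787 ± 53.4 and 544 ± 30.6, Fabp2 at 202 ± 44.6 and 209 ± 35.2, and Lipc at 69.1 ± 20.0 and 71.3 ± 1.14. Cd36 came next in that order at 23.8 ± 11.3 and 50.5 ± 30.3 CPM per kb. By the mean of the HFD libraries, Fabp4 (101 ± 160 CPM per kb) and Lpl (27.8 ± 33.0) stood above Cd36, both highest in HFD replicate 2. Over the 6 libraries the ranges of Fabp1, Slc27a2, Fabp2 and Lipc did not overlap with each other, while that of Cd36 overlapped with Lipc above it and Slc27a1 below it, and those of Slc27a1, Fabp4, Lpl, Fabp5 and Slc27a4 overlapped with their neighbours in this order. Slc27a4 was at 3.89 ± 1.20 and 9.20 ± 0.54 CPM per kb, so the one transport protein called higher was far below Slc27a2 in both groups. Fabp1 made up 94.7% to 98.0% of the 4 FABP transcripts per kb in HFD and 94.8% to 95.9% in HFD+allantoin. The 94.7% was in HFD replicate 2, where Fabp4 took 3.27%, and HFD replicates 1 and 3 were at 98.0% and 97.1%. The share of Fabp2 was 1.83% to 2.68% in HFD and 3.86% to 5.06% in HFD+allantoin, while its own level was 202 and 209 CPM per kb.

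**Figure D4:**
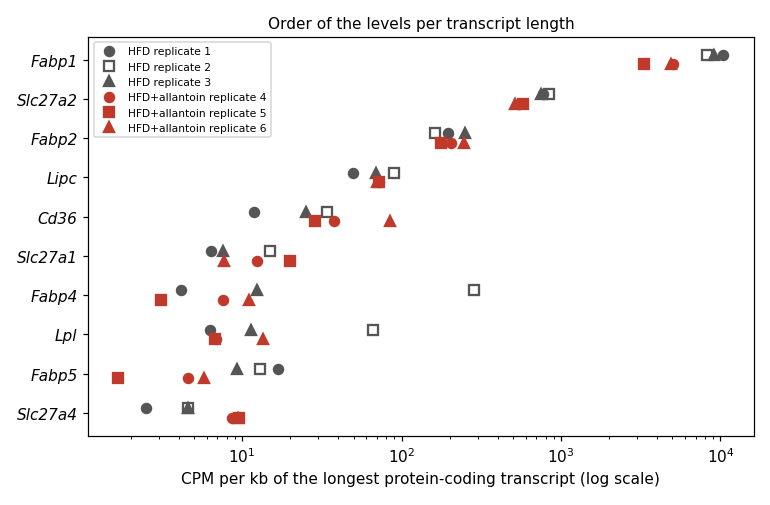
Level of each of the 10 genes in each library as CPM per kb of the longest protein-coding transcript, on a logarithmic axis. Fabp1 and Slc27a2 lie highest in every HFD and HFD+allantoin library and the ranges of neighbouring genes overlap from Lipc downwards.

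Of 25 other genes of fatty acid and triglyceride handling, 20 were tested, 2 were called higher, 4 lower and 14 were not called. Over all tested genes, 11.3% were called higher and 13.0% lower. The median log2 difference of the 20 was -0.09, beside -0.03 for all tested genes. Lipg, endothelial lipase, which acts mainly on the phospholipids of HDL, rose from 1.65 ± 0.319 to 8.53 ± 1.22 CPM, a log2 difference of 2.37 (adjusted p = 0.00301, edgeR). Sdc1, a heparan sulfate proteoglycan that binds remnant lipoproteins, rose from 82.8 ± 21.3 to 141 ± 18.2 CPM (log2 difference 0.76, adjusted p = 0.0345, edgeR, 0.0600 without HFD replicate 2).

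Among the genes that fell were inhibitors and a maturation factor of lipoprotein lipase. Apoc3, which slows triglyceride clearance, fell from 3092 ± 260 to 1038 ± 104 CPM (log2 difference -1.58, adjusted p = 0.00242, edgeR). Angptl8, an inhibitor of lipoprotein lipase, fell from 43.1 ± 20.7 to 8.40 ± 1.91 CPM (log2 difference -2.36, adjusted p = 0.00476, edgeR). Lmf1, needed for lipases to fold, fell from 52.7 ± 16.2 to 27.5 ± 2.40 CPM (log2 difference -0.93, adjusted p = 0.0185, edgeR). Slc27a3, a further SLC27 protein, had 25, 47 and 51 counts in HFD and 3, 3 and 3 in HFD+allantoin (adjusted p = 0.00232, edgeR), a ratio of HFD to HFD+allantoin of 19.8 with a counting interval of 10.1 to 44.4.

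Some genes of this list changed their call without HFD replicate 2, with 4 then higher and 5 lower. In that fit, 9.83% of all tested genes were called higher and 12.5% lower. Slc27a5 (FATP5), the liver's bile acid and fatty acid CoA ligase, was at 481 ± 148 and 769 ± 77.6 CPM (log2 difference 0.68, adjusted p = 0.0650, edgeR) and passed without that library at 0.92 (adjusted p = 0.0257). Gpihbp1, which anchors lipoprotein lipase to capillaries, went from 0.73 (adjusted p = 0.195) to 1.28 (adjusted p = 0.0279, edgeR). Cav1, a caveolar protein abundant in adipocytes and endothelium, went from -1.64 (adjusted p = 0.160) to 0.11 (adjusted p = 0.888, edgeR). Angptl4, a lipase inhibitor, went from -1.38 (adjusted p = 0.0630) to -0.95 (adjusted p = 0.181, edgeR), and its groups overlapped with and without that library. Slc27a6, Fabp3, Fabp6, Fabp12 and Pmp2 had too few counts to be tested.

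Of 12 genes for nuclear receptors and other regulators of these genes, all tested, 4 were called higher and 0 lower by edgeR, with a median log2 difference of 0.35, beside 11.3% higher, 13.0% lower and a median of -0.03 for all tested genes. Ppara, the receptor that senses fatty acids and drives their oxidation, rose from 28.4 ± 10.1 to 115 ± 27.6 CPM (log2 difference 2.02, adjusted p = 0.00389, edgeR). Its partner Rxra rose from 199 ± 12.5 to 376 ± 56.7 CPM (log2 difference 0.92, adjusted p = 0.00787, edgeR). Ppargc1a, a coactivator of oxidative genes, rose from 4.01 ± 1.02 to 8.06 ± 1.37 CPM (log2 difference 1.0, adjusted p = 0.0343, edgeR, 0.0767 without HFD replicate 2). The bile acid receptor gene Nr1h4 was at -0.59 (adjusted p = 0.0507, edgeR) and passed without HFD replicate 2 at -0.73 (adjusted p = 0.0275). Pparg was at 0.62 (adjusted p = 0.250) and Hnf4a at -0.11 (adjusted p = 0.735, edgeR).

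**Figure D5:**
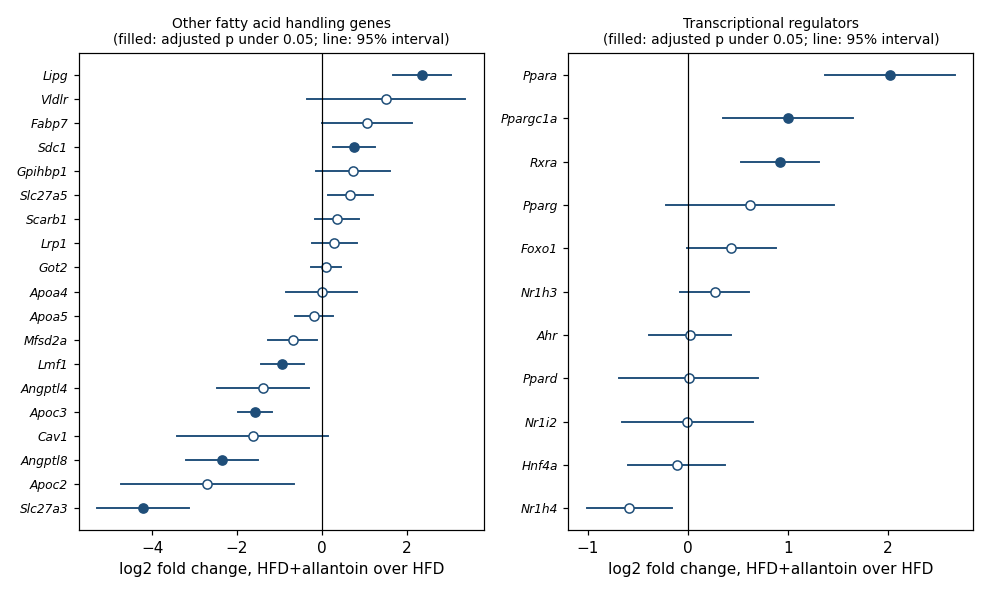
Log2 difference, HFD+allantoin minus HFD, of other fatty acid handling genes and of regulators, with 95% confidence intervals and filled symbols for an adjusted p under 0.05. Lipg and Ppara lie highest among the called genes and Slc27a3 lowest.

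Marker genes of other liver cells also differed between the groups. The summed level of 7 stellate cell markers was 129 to 189 CPM in HFD and 320 to 360 CPM in HFD+allantoin (2.19-fold, exact permutation p = 0.10, the smallest that 3 against 3 allow), and Lrat, Dcn, Reln, Colec11 and Hgf were called higher. The 7 macrophage markers summed to 138 to 317 and 335 to 367 CPM (1.73-fold, and 2.38-fold without HFD replicate 2, exact permutation p = 0.10). Adgre1, Cd5l and Vsig4 were called higher, with Clec4f and Csf1r added without HFD replicate 2. With all 6 libraries, the macrophage markers Cd68 (log2 difference -0.01) and C1qa (-0.06) were not called. Neither were the stellate markers Des (-0.02) and Pdgfrb (0.40). Over all tested genes, 11.3% were called higher. The 7 sinusoidal endothelial markers summed to 77.9 to 147 and 129 to 205 CPM, and none was called (1.39-fold, and 1.61-fold without HFD replicate 2, where Kdr and Pecam1 were called higher). Cd36, Fabp4, Fabp5 and Lpl are also made by such cells, and the part of these cells in the results was not tested. The 6 hepatocyte markers found summed to 87233 to 89246 and 72038 to 101690 CPM, most of it Alb. Of these 6, Apob and Cps1 were called higher, Ttr, Apoa1 and Serpina1c were called lower, and Alb was not called. Apob and Cps1 were not called without HFD replicate 2. Blood markers summed to 319 to 1288 and 858 to 1032 CPM. Pancreas markers summed to 13.5 to 27.3 and 14.5 to 25.0 CPM, most of it Cela1. The pancreas markers Prss2, Cpa1, Pnlip and Ctrb1 had 0 to 9 counts in each library. Skeletal muscle markers summed to 0.669 to 5.73 and 0.270 to 0.592 CPM, highest in HFD replicate 2, where Acta1 had 46 counts. Ckm, Myh4 and Tnnt3 were at 0 in every library.

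The genes with the profile most like each member over the 6 libraries were found by the root mean square difference of centred log2 CPM, among 11167 genes. For Slc27a2 it was Rxrg at 0.031, for Lipc Tomm5 at 0.047, for Slc27a4 Etfdh at 0.059, for Fabp2 Nptn at 0.059 and for Fabp1 Cd3eap at 0.067. Cd36 was nearest to Maoa at 0.126, Slc27a1 to Slc43a1 at 0.163 and Fabp5 to Mpp4 at 0.252. Lpl had no neighbour as close, with Ifi27l2a at 0.383 as the nearest. No reference distance was computed for the nearest of 11167 genes over 6 libraries, and shared regulation was not tested.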

How the data were processed

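Whole liver RNA from 6 samples, 3 in each group, was sequenced from libraries of a SMARTER mRNA-Seq kit. The authors filtered the reads and deposited whole-number read counts for each gene, without normalization. The submitters' processing notes name GRCm38 and mm10, and the aligner, the counting tool and its strand setting are not given in the sources used here. Of 54961 features, 429 without an Ensembl identifier (0.197% to 0.306% of counts) were left out, and 54495 of the others were in GENCODE M21.

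Library totals were 11326372 to 14601457 counts. edgeR 4.0.16 in R 4.3.3 was used with TMM, filterByExpr and the quasi-likelihood test, with group as the only term and Benjamini-Hochberg adjustment over 12795 genes. Log2 CPM used a prior count of 2. Alternatives included DESeq2 1.42.0, limma-voom (limma 3.58.1), other scalings and filters, and leaving out each library. The fit was tested on simulated data. Similar transcripts were searched with BLAST 2.17.0 (at least 95% identity over 200 bases), and promoter sequences are from RefSeq (GRCm38.p6). The named genes are all members, the called genes of the fatty acid handling and regulator lists, and markers at or near 0 or called. Also named are some markers without a call, and the protein-coding gene (mean of at least 1 CPM) with the nearest profile. The genes of both lists named without a call were chosen after their values were seen. The members and lists were chosen with earlier results of these data known. The 2 settings that leave out HFD replicate 2 and remove the length and GC trend, or use protein-coding transcript length, were added after seeing the data. Some genes of the lists, and the gene nearest to Fabp4, enter the counts and are not reported here by name.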

Additional observations from a re-analysis of the deposited data

How the results depend on the processing

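Slc27a4 kept its direction and its call in all 16 alternatives, Fabp1 and Fabp5 in 13 of 16 each, and Slc27a2 in 7 of 16 with its direction kept in all. Cd36, not called, passed in 3 (library size only, DESeq2, no filter), Fabp4 in 3 of 15 (DESeq2 gave it no adjusted p) and Lpl in 1 (no filter). With 1 library left out, the log2 difference of Fabp2 ran from -0.089 (without HFD replicate 2, and also without HFD+allantoin replicate 6) to 0.23, that of Lpl from -2.08 to 0.041 (without HFD replicate 2) and that of Lipc from -0.15 (without HFD replicate 1) to 0.27, and each reversed in the settings named. Members called higher numbered 1, and 2 with library size only, DESeq2 or no filter. Members called lower numbered 3, but 1 with library size only, 0 at an adjusted p under 0.01, and 0 to 3 with 1 library left out (1 without HFD+allantoin replicate 4 and 0 without replicate 5). Without HFD replicate 2, 3 members were called by edgeR and 5 by DESeq2. Over all 13150 genes tested without that library, edgeR called 1292 higher and 1642 lower, and DESeq2 1653 and 1915. The handling genes called higher, 2 in all, became 6 with library size only or no filter and 1 to 4 with 1 library left out. The regulators called higher, 4 in all, became 6 with library size only, 5 with no filter and 2 to 4 with 1 library left out. Regulators called lower, 0 in all, were 0 to 1 with 1 library left out, with 1 (Nr1h4) without HFD replicate 2. With all 6 libraries, Nr1h4 was also called lower by DESeq2, by limma-voom and with upper-quartile factors. The same held with a filter of CPM over 1 in at least 3 libraries, without the mitochondrial chromosome, and with the length and GC trend removed. The cause was not tested. Over all genes, 1446 higher and 1666 lower of 12795 became 3162 and 674 with library size only and 1747 and 1966 with DESeq2. With no filter they were 1822 and 2134 of 23635. Without HFD+allantoin replicates 4, 5 and 6 they were 596 and 700, 460 and 564, and 702 and 832. No paired analysis was possible because the groups share no replicate numbers (1 to 3 against 4 to 6). At 11326372 to 14601457 counts per library, genes at or under 3 counts, such as Slc27a3 in HFD+allantoin, give only rough ratios.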

Other observations

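Ratios of counts between members of the same library do not depend on scaling between libraries, and these pairs were chosen after the values were seen. For 1000 counts of Slc27a2, Slc27a4 had 4.54, 7.51 and 8.53 counts in HFD and 21.9, 23.2 and 25.5 in HFD+allantoin. Cd36 had 18.1, 47.1 and 39.3 counts for 1000 of Slc27a2 in HFD and 80.6, 58.2 and 193 in HFD+allantoin. Fabp1 had 30690, 29272 and 20750 counts for 1000 of Fabp2 in HFD and 14220, 10729 and 11336 in HFD+allantoin. In each of the 3 ratios every HFD library was on one side of every HFD+allantoin library. The choice of pairs favours this, so it adds no support to the calls above. Taken singly, 44.3% of all tested genes had groups that did not overlap, and no such share was computed for ratios.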
